A study of Arabidopsis thaliana with 4 samples.

Results

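LEAFY (LFY) is a plant transcription factor that directs the formation of flowers and binds DNA directly. UFO, named for its UNUSUAL FLORAL ORGANS mutant, belongs to the F-box proteins, which join an adaptor such as ASK1 in a ubiquitin ligase. It also works with LFY at floral genes such as APETALA3 (AP3). The sites described here are 760 peaks of a mutant LFY protein, LFY K249R, in which a lysine is replaced by an arginine. They were chosen by the distances between peak centres: a peak of LFY K249R + UFO had its centre at most 200 bp away and no peak of LFY + UFO did. They made up 7.63% of the 9956 peaks listed for LFY K249R and 9.74% of those shared by the mutant lists. The other 2 lists held 18957 peaks for LFY + UFO and 8577 for LFY K249R + UFO.

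Binding was measured by ampDAP-seq, a cell-free assay in which a tagged protein is mixed with PCR-amplified genomic DNA, purified with the DNA it holds and sequenced. All preparations used DNA of wild-type Col-0 Arabidopsis thaliana seedlings aged 2 weeks. The LFY + UFO preparation held 5xmyc-tagged LFY with a recombinant ASK1-UFO-3xFLAG complex, the LFY K249R preparation held the 5xmyc-tagged mutant alone, and the LFY K249R + UFO preparation held the mutant with that complex. LFY proteins were made in the Promega TnT transcription-translation system, per the labels. An input DNA sample without tagged protein also belongs to the series, and no peak list of it was used here. A preparation of unmutated LFY alone is not analysed here, so a site missing with LFY + UFO cannot be assigned to the unmutated protein or to UFO. The labels state that LFY + UFO peaks had to occur in all 3 replicates and the mutant peaks in both of 2.

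Each list gives the position of 400-bp intervals and no height, count or p-value. There was 1 merged list per preparation, so spread between replicates could not be measured and no test between preparations was made. The depth of sequencing is unknown, and a site absent from a list may be unbound or below the calling threshold. A range in brackets after a share is its exact 95% binomial interval (Clopper-Pearson) over peaks. Other shares, among them all shares of genes, are printed without one. Peaks do not replicate a preparation, so these intervals hold counting error alone. DNA sequences of the sites were not used here.

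The values that chose the sites are given first, as a description. The nearest LFY + UFO centre lay 201 to 67691 bp away, with a median of 2432 bp. The lower and upper quartiles were 1078 and 4540 bp. Most of the 760 sites were thus well clear of the limit. LFY + UFO centres lay 200 to 400 bp away at 42 sites (5.53%), where the 400-bp intervals still overlapped or touched. A further 132 sites had a LFY + UFO centre at 400 to 1000 bp, and 40 sites had none within 10 kb. Of the 174 sites with a LFY + UFO centre within 1000 bp, 74 (42.5%) had as that neighbour a LFY + UFO peak with its own LFY K249R peak. At those loci the mutant was therefore listed at a pair of positions and LFY + UFO at the other one.

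**Figure D1:**
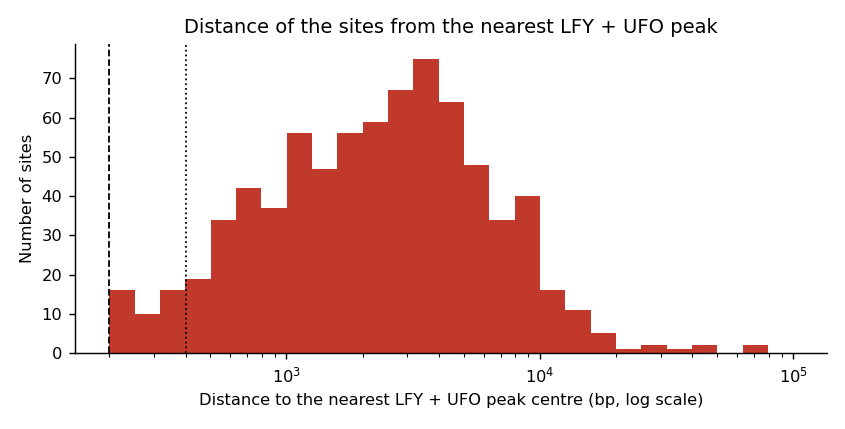
Distance from each of the 760 sites to the nearest LFY + UFO peak centre, on a log scale in bp, with the number of sites on the y axis. The dashed line marks the 200-bp limit that chose the sites, the dotted line marks 400 bp, and the median lies at 2432 bp.

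At the limit itself, the 3 sites just inside it were chr1:12532402-12532801, 201 bp from a LFY + UFO centre, chr3:18077157-18077556, 205 bp away, and chr5:23046644-23047043, also 205 bp away. The last of these lay in CKX3, a cytokinin oxidase gene. The 3 peaks just outside the limit were chr3:10766692-10767091 at 200 bp, chr1:10067627-10068026 at 199 bp and chr3:21953356-21953755 at 198 bp. The last lay in GCN2, which encodes a protein kinase of the amino acid starvation response. These 6 peaks differ from one another by a few base pairs of offset, so the limit is not a natural break.

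The positions of the sites were nearly the same with and without UFO. The LFY K249R + UFO centre lay a median of 8 bp from the LFY K249R centre, with quartiles of 4 and 15 bp. It lay within 10 bp at 456 sites (60.0%) and more than 50 bp away at 12 sites. For the 7044 LFY K249R peaks present in all 3 lists, the median was 6 bp and 74.1% lay within 10 bp. Because the choice of sites capped this distance at 200 bp, the 2 medians are not compared by a test. Counted among the LFY K249R + UFO peaks, the same rule gave 759 sites. At 7 of the 760 sites the LFY K249R + UFO partner was itself within 200 bp of a LFY + UFO centre.

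What the choice of sites did not use was their place relative to genes, and there they differed from the peaks in all 3 lists. A low in-gene share was not particular to the sites. Peaks found only with LFY K249R or only with LFY K249R + UFO also had low shares, 38.9% and 37.9%. Of the 760 sites, 227, or 29.9% (26.6% to 33.3%), had their centre inside a protein-coding gene. Of the 7044 peaks in all 3 lists, 3974 did, or 56.4% (55.2% to 57.6%). The difference was 26.5 percentage points, with a 95% interval (Newcombe) of 23.0 to 29.9 points over peaks. Over the whole LFY K249R list 53.8% of peaks lay in such genes, and protein-coding genes covered 54.1% of the span between the first and last listed peaks. The sites were therefore rarer in genes than the ground that genes cover, while the peaks in all 3 lists were close to it.

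The shares outside genes were correspondingly higher, since the shares of a class sum to the whole. Centres within 1 kb of a gene made up 39.1% (35.6% to 42.7%) of the sites, against 25.04% (24.0% to 26.1%) of the peaks in all 3 lists. From 1 to 3 kb the shares were 19.3% (16.6% to 22.3%) and 10.7% (10.02% to 11.5%). Beyond 3 kb they were 11.7% (9.51% to 14.2%) and 7.81% (7.19% to 8.46%). Among the 533 sites outside genes alone, 55.7% (51.4% to 60.0%) lay within 1 kb, 27.6% (23.8% to 31.6%) from 1 to 3 kb and 16.7% (13.6% to 20.1%) beyond. Among the 3070 peaks of all 3 lists outside genes these shares were 57.5% (55.7% to 59.2%), 24.6% (23.1% to 26.2%) and 17.9% (16.6% to 19.3%), and each interval overlapped that of the sites. Outside genes, no excess next to them was thus seen. Per Mb of ground, the sites numbered 3.52 in genes, 12.2 within 1 kb of a gene, 11.1 from 1 to 3 kb and 5.22 beyond 3 kb. The peaks in all 3 lists numbered 61.7, 72.6, 57.0 and 32.3 per Mb in the same order. In proportion, the density of the sites thus differed more between genes and their flanks than that of the peaks in all 3 lists.

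**Figure D2:**
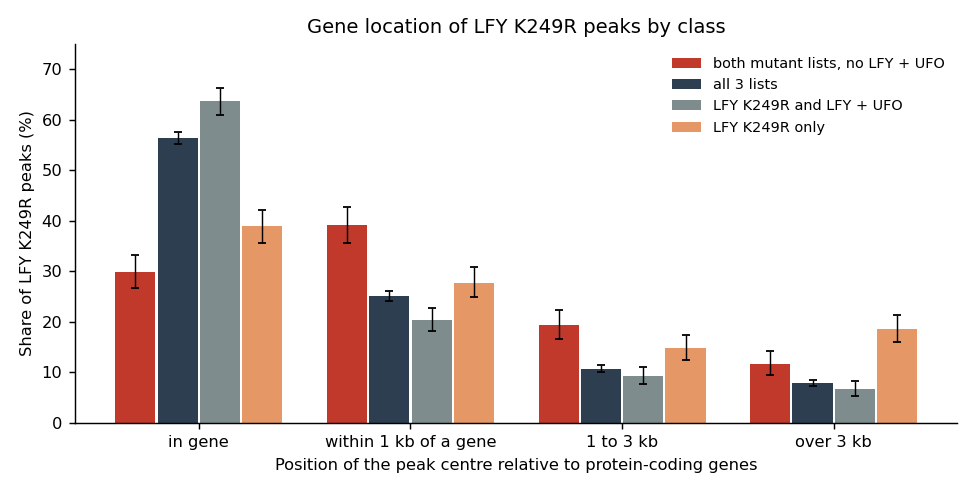
Share of LFY K249R peaks (y axis, percent) whose centre lay in a protein-coding gene, within 1 kb of one, at 1 to 3 kb, or over 3 kb away, for 4 classes of LFY K249R peaks; bars are shares of each class and error bars are exact 95% binomial intervals over peaks. The sites of both mutant lists without LFY + UFO are lowest inside genes (29.9%) and highest within 1 kb of them (39.1%).

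Read the other way, the share of peaks of both mutant lists that lacked LFY + UFO differed with where they lay. In genes, 227 of 4201 such peaks, or 5.40% (4.74% to 6.13%), lacked it. Within 1 kb of a gene, 297 of 2061 did, or 14.4% (12.9% to 16.0%). The shares were 16.3% (13.9% to 18.9%) from 1 to 3 kb and 13.9% (11.3% to 16.9%) farther out. Outside genes the 3 intervals overlapped, so these shares did not separate by distance from the gene. Among gaps between genes, those up to 500 bp long held the fewest sites, 14 of 201 peaks of both mutant lists, or 6.97% (3.86% to 11.4%). The classes of gaps longer than 500 bp held 13.7% to 16.7%. The interval of the shortest gaps overlapped those of gaps of 500 to 1000 bp (11.0% to 19.4%) and 1000 to 2000 bp (10.9% to 16.9%). It lay below those of the longer gaps. The median gap that held a site was 4199 bp, with quartiles of 2037 and 9729 bp, against 3802 bp for the peaks in all 3 lists that lay outside genes.

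Inside genes, the sites were least rare at the edges. Within 250 bp of a gene's end, 61 of 723 peaks of both mutant lists, or 8.44% (6.51% to 10.7%), lacked LFY + UFO. From 250 to 500 bp the share was 3.49% (2.20% to 5.23%), and from 500 to 1000 bp it was 4.30% (3.18% to 5.68%). Deeper than 2000 bp, in the middle of long genes, it was 6.38% (4.51% to 8.73%), and that interval overlapped those of the shallower classes. The gene table used holds no strand, so a gene's start and its end, and hence promoter and downstream flank, could not be told apart. It holds no exons either, so exonic and intronic sites were not separated.

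The low share in genes was tied to the exact gene positions. When the gene table was moved against the peaks, the in-gene share of the sites rose from 29.9% with no shift to 31.3% and 31.8% at shifts of -100 and 100 bp. It was 38.4% and 40.7% at -500 and 500 bp, and 52.4% and 50.1% at -2000 and 2000 bp. The peaks in all 3 lists moved between 56.4% and 60.4% over the shifts tried. Their share was likewise lowest with no shift, by a smaller margin. At a shift of 5000 bp the sites stood at 53.7%, nearer the 59.1% of the peaks in all 3 lists. LFY K249R peaks found in no other list also had their lower shares near zero shift, 38.9%, and stood at 48.5% at 5000 bp, below the sites. The surroundings of the sites at 5000 bp thus held fewer genes than those of the peaks in all 3 lists and more than those of the LFY K249R-only peaks.

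**Figure D3:**
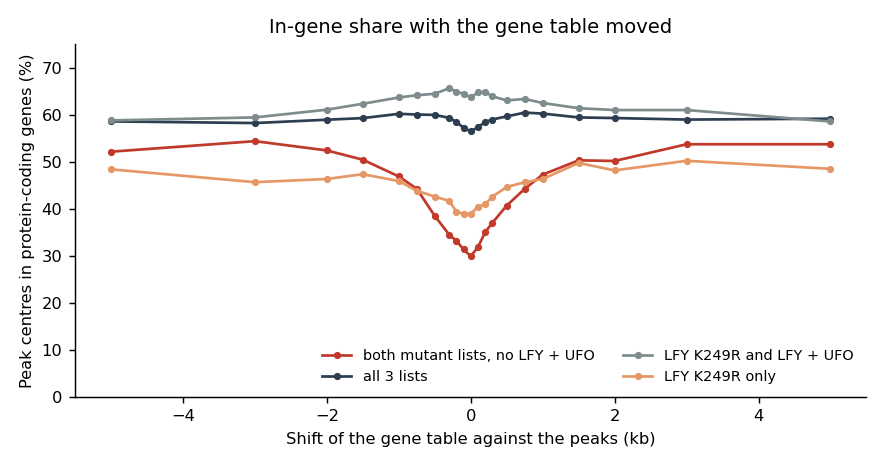
Share of peak centres in protein-coding genes (y axis, percent) after the gene table was moved by up to 5 kb in either direction (x axis, kb), for 4 classes of LFY K249R peaks. The sites of both mutant lists without LFY + UFO dip to 29.9% at zero shift and stand above 50% at 2 kb on both sides.

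The difference was present on each of the 5 chromosomes. On chromosome 1, 34.5% of the 197 sites lay in genes, against 58.4% of the peaks in all 3 lists. On chromosome 2 the shares were 30.0% of 150 sites and 53.0%. On chromosome 3 they were 34.9% of 149 sites and 54.2%. Chromosome 4 had the lowest share, 18.3% (11.6% to 26.9%) of 109 sites, against 56.5%. On chromosome 5 the shares were 27.1% of 155 sites and 58.5%. No interval of the sites reached that of the peaks in all 3 lists on the same chromosome. The intervals of the 5 chromosomes overlapped for most pairs of the site shares, but that of chromosome 4 lay below those of chromosomes 1 and 3.

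**Figure D4:**
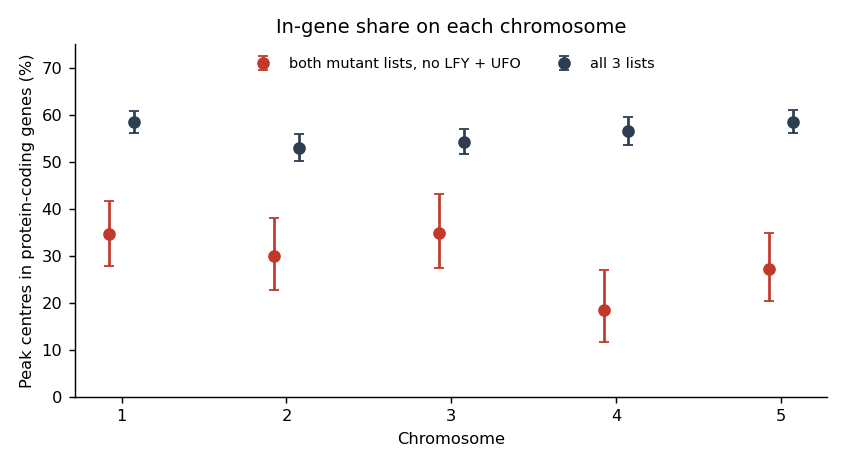
Share of peak centres in protein-coding genes (y axis, percent) on each chromosome (x axis); points are shares and bars are exact 95% binomial intervals over peaks. The sites of both mutant lists without LFY + UFO run from 18.3% to 34.9% and lie below the peaks in all 3 lists on every chromosome.

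The in-gene share was also taken apart by region. The longest peak-free stretch of the LFY K249R list on each chromosome was taken as a landmark, with no centromere annotation used. Within 2 Mb of its middle lay 111 of the 760 sites (14.6%) and 709 of the 7044 peaks in all 3 lists (10.1%). Of these 111 sites, 5 lay in genes, or 4.50% (1.48% to 10.2%). Of the peaks in all 3 lists there, 150 of 709 did, or 21.2% (18.2% to 24.4%). Farther out, 34.2% (30.6% to 38.0%) of 649 sites lay in genes, against 60.4% (59.1% to 61.6%) of 6335 peaks. The share of the sites was lower than that of the peaks in all 3 lists in both regions. Whether reads from repeated sequence entered these lists was not tested.

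The in-gene share is given next by distance to LFY + UFO, the value that chose the sites, as a description. It was 40.5% (25.6% to 56.7%) for the 42 sites at 200 to 400 bp from a LFY + UFO centre and 36.4% (28.2% to 45.2%) for the 132 sites at 400 to 1000 bp. It was 25.2% (18.6% to 32.6%) at 1000 to 2000 bp, 30.9% (25.4% to 36.9%) at 2000 to 5000 bp, 25.4% (18.0% to 34.1%) at 5000 to 10000 bp and 22.5% (10.8% to 38.5%) beyond 10 kb. Neighbouring intervals overlapped. Even the closest class lay below the 56.4% of the peaks in all 3 lists, although its upper bound of 56.7% exceeded that value.

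Peaks found in a single mutant list and not with LFY + UFO were closest to the sites in this respect. Of the 879 peaks found with LFY K249R only, 38.9% (35.7% to 42.2%) lay in genes, above the interval of the sites. Of the 537 of them outside genes, 30.4% (26.5% to 34.4%) lay more than 3 kb from one, against 16.7% of the 533 sites outside genes. Of the 243 peaks found with LFY K249R + UFO only, 37.9% (31.7% to 44.3%) lay in genes and 33.3% (27.4% to 39.6%) within 1 kb of one, and both intervals overlapped those of the sites. The 1273 LFY K249R peaks shared with LFY + UFO and not with LFY K249R + UFO had 63.6% (60.9% to 66.3%) in genes. Of the 18957 LFY + UFO peaks, 64.7% did, and of the 10088 of these in neither mutant list, 70.3% (69.4% to 71.2%). How the place of LFY + UFO peaks bears on the in-gene share of the sites was not tested. Both classes of LFY K249R peaks without LFY + UFO thus had lower in-gene shares than both classes with it.

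Peaks of all 3 lists surrounded the sites. Between 1 and 20 kb from a site there were on average 6.36 LFY + UFO peaks (SD 2.80 over 760 sites), against 6.49 (SD 2.71) around the 7044 peaks in all 3 lists. LFY K249R peaks numbered 3.39 (SD 1.89) and 3.38 (SD 1.83), and LFY K249R + UFO peaks 2.94 (SD 1.76) and 2.93 (SD 1.73). These means were not compared by a test. The sites were scattered. The median distance from one to the next was 111.1 kb, and 554 windows of 100 kb held at least 1 site. No such window held more than 4, and 16 neighbouring pairs lay within 2000 bp of each other. Among peaks of both mutant lists, the share that lacked LFY + UFO ran from 8.63% (7.37% to 10.02%) on chromosome 5 to 11.3% (9.69% to 13.2%) on chromosome 2, and these intervals overlapped.

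The sites farthest from LFY + UFO lay in gene-poor ground. On chromosome 1 this was chr1:14264182-14264581, 67691 bp from a LFY + UFO centre and 25151 bp from the nearest protein-coding gene. On chromosome 2 it was chr2:4574984-4575383, 40146 bp from LFY + UFO, and on chromosome 3 chr3:15460971-15461370, 27169 bp away. The farthest site of chromosome 4 was chr4:3267128-3267527, at 18231 bp, and that of chromosome 5 was chr5:12108855-12109254, at 11511 bp. All 5 had a LFY K249R + UFO centre within 22 bp, and the nearest gene to each lay more than 11 kb away.

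Genes near the sites were counted with a window of 3 kb on both sides of each gene. A site lay in the window of 1328 of 27444 protein-coding genes, or 4.84%, and any LFY K249R peak in that of 52.1%. Of the 1328 genes, 309 (23.3%) had no LFY + UFO peak in the window. Over all 27444 protein-coding genes, 20820 had such a peak, so a similar share lacked it. A list of 30 regulators of flower development held 26 genes with a LFY K249R peak and 27 with a LFY + UFO peak. The 26 genes are 86.7% of the list, against 52.1% of all genes with a LFY K249R peak. The list held 4 genes with a site, AP2, AP3, LMI1 and LMI2, or 13.3% against the 4.84% of all genes. That share rests on 4 genes and was not tested. With a window of 1 kb it was 0, against 2.46% of all genes. None of the 4 sites lay within 1 kb of the gene, and each was nearer to another protein-coding gene.

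AP3 encodes the MADS-box protein that specifies petals and stamens with PISTILLATA. Its site, chr3:20116028-20116427, was centred 2912 bp from the lower-coordinate end of AP3 and 3361 bp from the nearest LFY + UFO centre. It lay inside the neighbouring gene WRI1, which encodes an activator of seed oil synthesis. The LFY K249R + UFO centre was 2 bp away. The other 3 LFY K249R peaks in the AP3 window each had a LFY + UFO centre within 11 bp. LFY + UFO had 5 peaks there, 2 inside the gene and 3 beyond its upper-coordinate end. At AP3 the peak confined to the mutant lists was thus the one farthest from the gene.

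LMI1 encodes a homeodomain leucine-zipper factor that LFY activates. Its site, chr5:1002125-1002524, was centred 2457 bp from the lower-coordinate end of the gene and 354 bp from a LFY + UFO centre. A second LFY K249R peak, chr5:1002490-1002889, overlapped the site and had LFY + UFO 11 bp away. Both mutant lists therefore held a pair of overlapping peaks there, and LFY + UFO held 1 of the pair and another peak inside the gene.

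LMI2 is the MYB gene MYB17, also a target of LFY. Its site, chr3:22673857-22674256, was centred 1306 bp beyond the upper-coordinate end of the gene and 2937 bp from LFY + UFO. On the other side of the gene LFY + UFO had 2 peaks, 686 and 246 bp from it, of which LFY K249R shared the first and LFY K249R + UFO neither. AP2, a regulator of sepal and petal identity and of seed development, had its site at chr4:17404763-17405162, 1494 bp beyond its upper-coordinate end. That was the only LFY K249R peak in the AP2 window, and LFY + UFO had none there, its nearest centre being 6268 bp away.

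**Figure D5:**
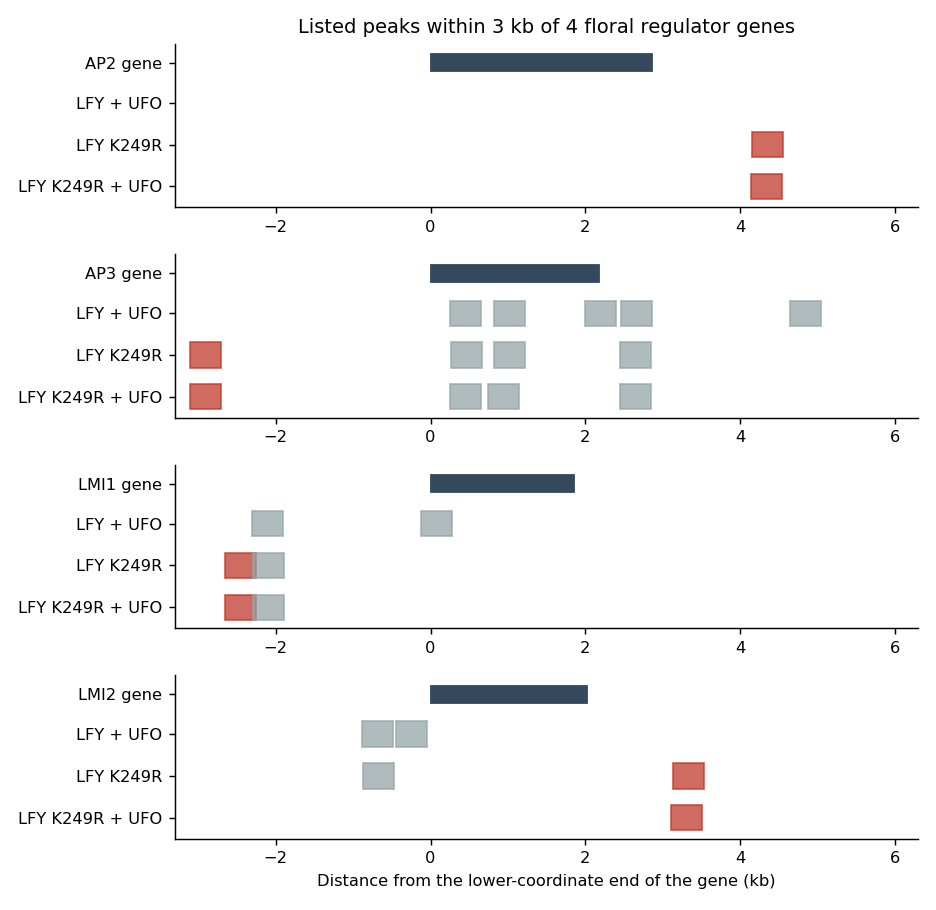
Listed 400-bp intervals of the 3 preparations (rows) within 3 kb of AP2, AP3, LMI1 and LMI2, with the gene as a dark bar and distance from its lower-coordinate end on the x axis in kb. Red intervals are the sites present in both mutant lists and absent with LFY + UFO, grey intervals are other peaks; no red interval overlaps a gene drawn here.

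Gene families were counted in the same window, to be read against the 4.84% of all protein-coding genes with a site, and no family was tested against the rest. Of 101 MADS-box genes, 8 (7.92%) had a site. With a window of 1 kb there were 6 (5.94%), against 2.46% of all genes. A LFY K249R peak was found at 56 of the 101 genes (55.4%), near the 52.1% of all genes. At FLC, the repressor of flowering that prolonged cold silences, the site chr5:3172602-3173001 was centred 580 bp from the gene and 5235 bp from LFY + UFO. This site was nearer to another protein-coding gene, AT5G10130, 101 bp away. The second LFY K249R peak in the FLC window lay in FLC, 7 bp from a LFY + UFO centre. At PHE1, a MADS-box gene imprinted in endosperm, the site chr1:24266163-24266562 lay in the gene. It stood between 2 LFY K249R peaks that each had LFY + UFO 10 bp away. The remaining MADS-box genes beside AP3 were AGL13, AGL83, AGL91, AGL97 and AGL99.

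Genes of auxin response and transport had a site in 17 of 153 cases (11.1%, against 4.84% of all genes), from 15 distinct sites. They included the Aux/IAA repressor genes AXR3, IAA2, IAA20 and IAA26 (listed as PAP1), the auxin response factor genes ARF13, ARF14 and ARF15, and small auxin-upregulated genes such as SAUR9 and SAUR15. At AXR3, the site chr1:1135453-1135852 was the only LFY K249R peak and lay 425 bp from the gene, with LFY + UFO 5171 bp away. At IAA20 the site chr2:19308282-19308681 lay in the gene, 645 bp from LFY + UFO. The SAUR15 site, chr4:18127061-18127460, also fell in the windows of 2 neighbouring SAUR genes. ARF13, ARF14 and ARF15 belong to a group of similar genes on chromosome 1, and the placement of reads among such copies was not tested. With a window of 1 kb, 4 of the 153 genes (2.61%) had a site, near the 2.46% of all protein-coding genes.

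The other families lay nearer the 4.84% of all genes or rested on few genes. Of 22 gibberellin genes, 1 (4.55%) had a site, RGA1, which encodes a DELLA repressor of the hormone's response. Its site, chr2:258268-258667, was centred 900 bp beyond the gene and 5749 bp from LFY + UFO. MYB genes had a site in 7 of 125 cases (5.60%), among them MYB4, a repressor of phenylpropanoid synthesis, and MYB23, which acts in leaf hair formation. WRKY genes had one in 5 of 71 cases (7.04%), including WRKY27, where the site chr5:21409726-21410125 lay 843 bp from the gene and LFY + UFO had no peak in the window. ERF genes had 1 of 26 (3.85%), ERF10, and SPL genes had 0 of 18, against LFY K249R peaks at 6 SPL genes. With a window of 1 kb, 1 MYB gene (0.8%) and 2 WRKY genes (2.82%) had a site, against 2.46% of all genes. The counts of gibberellin, ERF and SPL genes with a site did not change. All these counts are small, and genes differ in the ground their windows hold.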

How the data were processed

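The 3 deposited lists hold the chromosome, start and end of 400-bp intervals and no value per peak. They are placed on TAIR10 and were made with Bowtie2, SAMtools and MACS2, per the submitters' processing notes. Settings, thresholds and use of the input are not given in the sources used here. Files were grouped by their sample labels. Sites were set by distance between centres. Genes came from the RefSeq table of TAIR10.1, which keeps the nuclear chromosomes of TAIR10 and has no strand or exons, so none of its coordinates is printed. Overlapping protein-coding genes were merged before distances were taken. The floral list was matched by locus tag (30 of 30) and families by symbol or synonym. Positions are 1-based. The code was tested on simulated lists. Tables were handled with pandas 2.3.3 and numpy 2.4.6 in Python 3.11.15, intervals came from scipy 1.17.1, and plots from matplotlib 3.10.9.

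The sites and gene lists were chosen with earlier results of these data known. Genes were named when they belonged to a fixed list or family and had a site in the window, and regions when farthest from LFY + UFO on their chromosome or nearest the 200-bp limit. Planned work on motifs, matrix scores, base composition and second copies needed a genome sequence and was not done, and gene position replaced the planned promoter share. The gene window planned as 3 kb upstream and 1 kb downstream became 3 kb on both sides.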

Additional observations from a re-analysis of the deposited data

How the results depend on the processing

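No paired analysis was possible because each preparation has 1 merged list, which also left no replicate to omit. Membership set with 100 bp gave 850 sites, with 400 bp 723, and with no LFY + UFO centre within 1000 bp 586. The in-gene share of the sites was 33.5% with 100 bp, 35.0% with genes of every biotype, 43.3% with any base of the interval in a gene, 23.0% with the whole interval in one, and 34.2% without peaks near the peak-free stretches. The difference from the peaks in all 3 lists was 22.8 points with 100 bp and 22.4 points with any base, and 25.8 to 28.8 points under the other 6 settings, so its direction held in all 8. The share within 1 kb of a gene became 26.1% with a 500-bp flank and 58.4% with a 3000-bp flank, by construction, and 55.7% over peaks outside genes only. Genes of the floral list with a site numbered 0 with a window of 1 kb and 0 in gene bodies. Protein-coding genes with a site numbered 675 (2.46%) and 228. The narrower windows hold less ground. The 500-bp and 3000-bp flanks, the gene body count for the floral list and the membership distances for the number of sites were planned; the alternatives to the in-gene share were chosen after seeing the data. Alternatives on motif, matrix, base composition, second copies and an upstream window were not run. Unknown depth limits every statement on a peak missing from a list.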

Other observations

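Some genes had several sites, and those named here were chosen after their values were seen. A site count of 2 or more was found for 45 of the 27444 protein-coding genes and of 3 for 3 of them. Windows of neighbouring genes overlap, so a site can count for several genes. AT5G59400 and AT5G59410 were counted for the same 3 sites. Beside AT4G08940 on chromosome 4, the sites chr4:5732369-5732768, chr4:5733618-5734017 and chr4:5734268-5734667 flanked a LFY K249R peak that LFY + UFO shared within 1 bp. Between AT5G59400 and its neighbours, the sites chr5:23957238-23957637, chr5:23960858-23961257 and chr5:23961237-23961636 were all 3 LFY K249R peaks in the window, and the 1 LFY + UFO peak lay 589 bp from the last. FAD3, a desaturase gene of the endoplasmic reticulum, had 2 sites and no LFY + UFO peak in its window. PHO2, a ubiquitin-conjugating enzyme gene of phosphate balance, had 2 sites and 2 LFY + UFO peaks.

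Genes of other kinds were counted over all peaks, including peaks that also lay in a protein-coding gene. Pseudogenes held 30 of the 760 sites, or 3.95% (2.68% to 5.59%), against 3.32% (2.92% to 3.77%) of the peaks in all 3 lists. The intervals overlapped. Genes of long noncoding RNA held 2 sites, or 0.263% (0.0319% to 0.947%), against 1.28% (1.03% to 1.57%). Transfer RNA genes held 4 sites, or 0.526% (0.144% to 1.34%), against 0.185% (0.0983% to 0.315%), and these intervals overlapped. No site lay in a microRNA gene, and 0 of 760 allows a share of up to 0.484% by the exact interval.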
